A study of Mus musculus with 8 samples.

Results

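The cytosolic heat shock proteins examined here are 10 genes chosen as the cytosolic counterpart of the chaperones of the endoplasmic reticulum (ER): the heat shock factor Hsf1, the HSP70 proteins Hspa8, Hspa1a and Hspa1b, the HSP90 proteins Hsp90aa1 and Hsp90ab1, the small heat shock protein Hspb1, the HSP110 protein Hsph1, and the J proteins Dnaja1 and Dnajb1. A gene was measured where a probe set named it alone, and of several such probe sets the brightest on average across the 8 arrays was taken. By that rule 6 of the 10 genes were measured, of 18820 genes in all: Hspa8, Hsp90aa1, Hspb1, Hsph1, Dnaja1 and Dnajb1. Hspa1a and Hspa1b, the near-identical heat-inducible HSP70 genes, were named only on 3 probe sets that carry both, and were given no value. Hsf1 and Hsp90ab1 had no named probe set and were not analysed here. The heat-inducible HSP70 pair and the factor itself are therefore missing from what follows.

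White adipose tissue was profiled on 8 arrays, 1 for each male mouse, so that mice are the replicates. The Sel1l-/- group held 4 mice made from a cross of mice with a floxed Sel1l with mice whose Cre is driven by the adiponectin promoter, a promoter of adipocytes. The WT group held 4 wildtype mice. Both groups were on a mixed C57BL/6N and C57BL/6J background and ate the high fat diet D12492 of Research Diets for 5 weeks. The age of the mice, the fat depot, the deleted exons, and whether the WT mice carried a floxed allele or Cre are not stated in the sources used here. The tissue also holds cells in which Cre is not active.

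Cytosolic heat shock proteins bind unfolded and nascent proteins in the cytosol and nucleus. HSP70 proteins hold and release clients with the help of J proteins, which bring clients and trigger ATP hydrolysis, and of HSP110 proteins, which exchange the nucleotide; HSP90 proteins mature kinases and steroid receptors, and small heat shock proteins keep clients from aggregating without using ATP. When unfolded proteins build up in the cytosol, HSF1 forms trimers, binds inverted repeats of GAA (heat shock elements) and induces many of these genes, while unfolded proteins inside the ER act through the unfolded protein response on a separate set of chaperones with their own promoter elements. SEL1L is the partner that holds the ubiquitin ligase HRD1 together in a complex that moves misfolded proteins out of the ER to the cytosol for degradation by the proteasome, so the cytosolic and ER sets can be read side by side in the same mice.

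Sel1l was at 9.56, 9.78, 9.72 and 10.07 on the log2 scale in the 4 Sel1l-/- mice, against 10.48, 10.57, 10.58 and 10.65 in the 4 WT mice. Sel1l fell by 0.79 on the log2 scale (SE 0.10, limma adjusted p = 0.0109), without overlap of the groups. The mouse codes hold a letter and a number whose meaning is not stated; with the letter as a block the limma adjusted p was 0.151, and with the number 0.0813. The mouse numbers 1 to 4 of the titles were tried as a block too. Array medians were 6.10 to 6.14 in Sel1l-/- and 6.05 to 6.08 in WT mice. Adipocyte markers were high in every mouse, with a list mean of 12.23 to 12.60 in Sel1l-/- and 12.51 to 12.75 in WT mice over the 9 of 10 genes that were measured. None of the 9 passed the test, and all 9 had a difference below 0; with the mouse number as a block, 1 did, Adipoq (limma adjusted p = 0.0204). Macrophage markers averaged 10.14 to 10.98 in Sel1l-/- and 9.77 to 10.52 in WT mice, with 0 of 8 called. All 8 differences were above 0, with a median of 0.37. Endothelial markers averaged 9.48 to 9.85 in Sel1l-/- and 9.97 to 10.16 in WT mice, and 1 of 7, Pecam1, fell by 0.39 (limma adjusted p = 0.0290). All 7 differences were below 0 (median -0.38), each with an unadjusted limma p under 0.05, beside 15% of all genes. Smooth muscle and pericyte markers averaged 8.94 to 9.49 in Sel1l-/- and 9.27 to 9.70 in WT mice, and lymphocyte markers 5.92 to 6.77 in Sel1l-/- and 6.42 to 7.14 in WT mice, with 1 of 6 (Tagln, limma adjusted p = 0.0476) and 1 of 5 (Cd2, limma adjusted p = 0.0456) lower. Each of these 3 calls was kept in at most 1 of 8 fits that left out a mouse. Differences were below 0 for all 6 smooth muscle and pericyte markers (median -0.52) and all 5 lymphocyte markers (median -0.62). Fibroblast markers averaged 10.10 to 10.52 in Sel1l-/- and 10.20 to 10.62 in WT mice, and mesothelial markers 9.10 to 9.77 in Sel1l-/- and 9.41 to 10.33 in WT mice, with none called; with the mouse number as a block 1 mesothelial marker, Wt1, fell (limma adjusted p = 0.0382), and 2 endothelial, 2 smooth muscle and 2 lymphocyte markers were called. Differences were below 0 for all 5 mesothelial and for 5 of 7 fibroblast markers. Skeletal muscle markers averaged 4.84 to 5.12 in Sel1l-/- and 4.92 to 5.25 in WT mice, and testis and epididymis markers 4.11 to 4.14 in Sel1l-/- and 3.96 to 4.11 in WT mice, where the lower quartile of an array was 4.33 to 4.37. In such a bulk sample, fewer cells of a type and less RNA per cell cannot be told apart, and the part that cell makeup has in the results below was not tested.

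The promoters of the cytosolic and ER genes were searched for the elements known to answer each kind of stress. Sequences come from the RefSeq promoter table of build GRCm38.p6, and the 250 bases before each start site were searched on both strands. Of the 10 heat shock genes, 6 had a window in that table: Hspa1a, Hspa1b, Hspb1, Hsph1, Dnaja1 and Dnajb1. These genes had 10 windows among them, and a gene is named below where any of its windows held a match. The shares of all windows count single windows, so they are not like for like with the genes named. The near-identical Hspa1a and Hspa1b hold the same match. A head-to-head pair of heat shock units, GAANNTTC, was in the windows of Hspa1a, Hspa1b, Hspb1 and Dnaja1, and in 6.69% of all 32851 windows. A tail-to-tail pair, TTCNNGAA, was in the window of Hsph1, in that of the ER gene Dnajc10 at -182 to -175, and in 7.17% of all windows. Neither pair was found in the window of Dnajb1. The form of 3 units, GAANNTTCNNGAA, which contains both pairs, was in 0.466% of all windows and in none of the 6 heat shock genes. It was found in 2 overlapping copies in the stretch shared by the divergent genes Hspe1 and Hspd1, which encode the mitochondrial chaperonin. The ER stress response element, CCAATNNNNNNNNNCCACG, was in 0.113% of all windows, in none of the 6 heat shock genes, and in 3 of the 7 ER chaperone genes with a window, Hspa5, Hsp90b1 and Dnajc3. A match of letters is not a bound site.

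The stretches around some of these matches are shown as examples of the heat shock and ER stress elements in genes whose values follow. Hspa8, Hsp90aa1 and Hyou1 had no window, and neither Dnajb1 nor Dnajb11 held any of the 4 elements, so of the pairs set side by side below only Dnaja1 and Dnajb11 can be seen to differ in them. Each runs 5′ to 3′ along its gene's strand, all lie upstream of the annotated start site, and capitals mark the fixed letters of each match. Hsph1 lies at chr5:149636337-149636399 on the minus strand, Hspb1 at chr5:135887772-135887859 on the plus strand, Dnaja1 at chr4:40722314-40722381 on the plus strand, Hspe1 at chr1:55088029-55088106 on the plus strand, Hspa5 at chr2:34771995-34772073 on the plus strand, Hsp90b1 at chr10:86705503-86705686 on the minus strand, and Dnajc3 at chr14:118937797-118937875 on the plus strand.
Hsph1: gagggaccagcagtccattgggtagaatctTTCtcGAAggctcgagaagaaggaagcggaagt
Hspb1: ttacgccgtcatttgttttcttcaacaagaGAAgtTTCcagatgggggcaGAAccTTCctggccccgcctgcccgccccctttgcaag
Dnaja1: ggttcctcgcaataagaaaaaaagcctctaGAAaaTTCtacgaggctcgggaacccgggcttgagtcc
Hspe1: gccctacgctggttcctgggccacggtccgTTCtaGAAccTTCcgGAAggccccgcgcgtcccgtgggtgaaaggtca
Hspa5: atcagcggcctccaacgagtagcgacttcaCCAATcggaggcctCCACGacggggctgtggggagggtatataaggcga
Hsp90b1: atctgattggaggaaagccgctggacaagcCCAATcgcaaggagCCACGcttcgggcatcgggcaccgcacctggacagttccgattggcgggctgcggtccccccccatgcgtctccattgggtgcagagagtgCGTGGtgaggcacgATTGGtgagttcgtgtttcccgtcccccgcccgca
Dnajc3: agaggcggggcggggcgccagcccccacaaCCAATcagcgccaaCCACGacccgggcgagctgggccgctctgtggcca
Hspb1 holds its head-to-head pairs at -117 to -110 and at -97 to -90 from the start site, and Dnaja1 holds its pair at -124 to -117. The tail-to-tail pair of Hsph1 is at -33 to -26, or -54 to -47 from its other annotated start. The element of Hspa5 is at -65 to -47 and that of Dnajc3 at -105 to -87. Hsp90b1 carries its element at -212 to -194 and again, on the other strand, at -107 to -89.

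None of the 6 measured heat shock genes passed the test between Sel1l-/- and WT mice. The largest difference was that of Hsph1, 1.24-fold higher in Sel1l-/- mice, which did not pass the test, and the differences of the other 5 lay between -0.12 and 0.053 on the log2 scale. Over all 18820 genes, limma called 324 (1.72%) at an adjusted p under 0.05, 195 of them higher (1.04%) and 129 lower (0.685%) in Sel1l-/- mice. With the mouse number as a block it called 725, and still 0 of the 6 heat shock genes. After centring of every array on its median, the calls were 119 higher and 154 lower. At an unadjusted p under 0.05, 0 of the 6 heat shock genes and 2823 of all genes (15%) were counted. With the mouse number or the code number as a block, and without WT 4, that count was 1 of the 6. The code letter as a block, which compares 2 Sel1l-/- mice with WT 4 alone, was left out of this count. In 0 of the 6 did the 4 Sel1l-/- mice lie wholly on one side of the 4 WT mice, against 1937 of all genes (10.3%). In a list of 6, counts of 0 are near each of these shares. Of the 6 differences 2 were above and 4 below 0, and their median was -0.011, beside -0.0037 over all genes.

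Hspa8 encodes HSC70, the constitutive HSP70 protein that folds nascent chains, uncoats clathrin and delivers clients to chaperone-mediated autophagy. It read 12.63, 12.58, 12.52 and 12.68 on the log2 scale in Sel1l-/- mice, against 12.67, 12.61, 12.55 and 12.61 in WT mice. The ranges lay almost on top of each other. Hspa8 averaged 12.61 ± 0.07 in Sel1l-/- and 12.61 ± 0.05 in WT mice (SD, n = 4 each), a difference of -0.0037 (SE 0.058, limma adjusted p = 0.986). The 95% interval of that difference corresponds to 0.910 to 1.09-fold, the narrowest of the 6. With 1 mouse left out in turn, the value lay between -0.030 and 0.024.

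**Figure D1:**
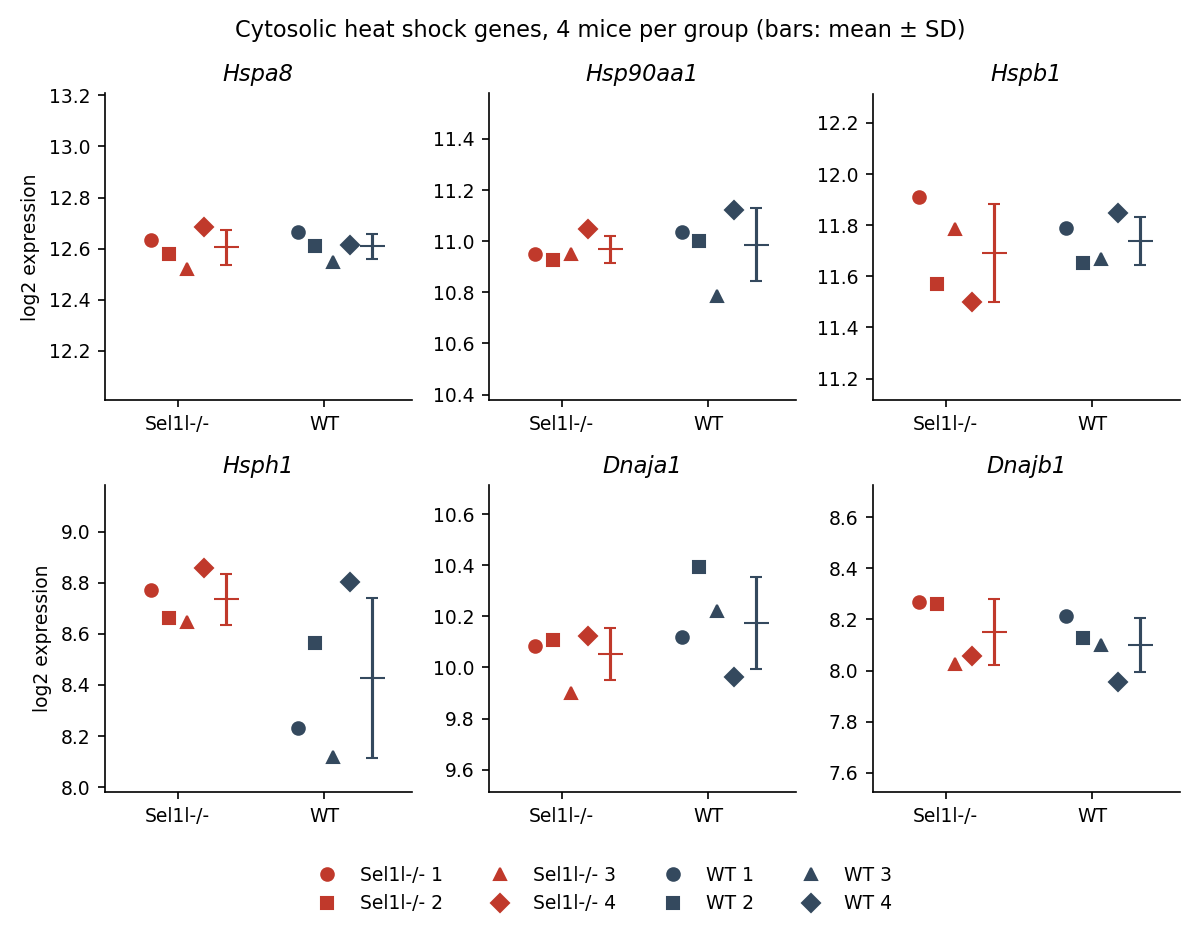
Log2 expression of the 6 measured cytosolic heat shock genes in each of 4 Sel1l-/- and 4 WT mice, 1 point a mouse, with the group mean and SD. The groups overlap in every panel, and in Hsph1 the WT mice spread from 8.12 to 8.80 while the Sel1l-/- mice lie between 8.65 and 8.86.

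Hsph1 encodes HSP105, an HSP110 protein that exchanges nucleotide on HSP70 and takes part in dissolving aggregates. It read 8.77, 8.66, 8.65 and 8.86 in Sel1l-/- mice, against 8.23, 8.57, 8.12 and 8.80 in WT mice. The 4 Sel1l-/- mice lay close together, while WT 1 and WT 3 were low and WT 4 was above 3 of the 4 Sel1l-/- mice. Hsph1 averaged 8.73 ± 0.10 in Sel1l-/- and 8.43 ± 0.31 in WT mice (SD, n = 4 each), a difference of 0.31 (SE 0.14, limma adjusted p = 0.376). Its 95% interval runs from 0.983 to 1.55-fold. Without WT 4 the difference was 0.43 (limma adjusted p = 0.117), and with the mouse number as a block its limma adjusted p was 0.170. Within the mice whose codes hold the letter F it was -0.085, and within the code numbers 5, 7 and 9 it was 0.13, 0.25 and 0.54. WT 2 and WT 4, the WT mice with the higher Hsph1, also had the higher macrophage marker means of their group, at 10.46 and 10.52 beside 9.77 and 9.81 in WT 1 and WT 3. Their immediate early gene means were 8.11 and 8.19, beside 7.95 and 7.91 in WT 1 and WT 3. Mesothelial means also set them apart, at 9.64 and 9.41 beside 10.08 and 10.33. The same split was seen in other lists, so it is not particular to these. Among them were adipocyte markers (12.64 and 12.51 beside 12.74 and 12.75) and ER counterparts (9.91 and 9.97 beside 9.82 and 9.81). Mitochondrial counterparts (10.12 and 10.17 beside 10.32 and 10.31) and endothelial markers (9.97 and 10.07 beside 10.14 and 10.16) were others. Fibroblast, smooth muscle and lymphocyte means did not split the WT mice so. In Sel1l-/- 1 to 4 the macrophage means were 10.14, 10.52, 10.48 and 10.98, and the immediate early means 7.99, 8.19, 7.93 and 8.20. Sel1l-/- 1 thus had the lowest macrophage mean of its group but a higher Hsph1 than Sel1l-/- 2 and 3. The part of any of these lists in the Hsph1 difference was not tested.

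Hsp90aa1 encodes HSP90 alpha, the stress-inducible cytosolic HSP90. It read 10.95, 10.93, 10.95 and 11.05 in Sel1l-/- mice, against 11.04, 11.00, 10.79 and 11.12 in WT mice. The WT mice enclosed the Sel1l-/- mice on both sides. Hsp90aa1 averaged 10.97 ± 0.05 in Sel1l-/- and 10.99 ± 0.14 in WT mice (SD, n = 4 each), a difference of -0.018 (SE 0.079, limma adjusted p = 0.945). Its 95% interval runs from 0.872 to 1.12-fold.

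Hspb1 encodes HSP25, the mouse form of the small heat shock protein HSP27, which binds unfolding proteins and steadies actin filaments. It read 11.91, 11.57, 11.79 and 11.50 in Sel1l-/- mice, against 11.79, 11.65, 11.67 and 11.85 in WT mice. Here the Sel1l-/- mice held both the highest and the lowest value. Hspb1 averaged 11.69 ± 0.19 in Sel1l-/- and 11.74 ± 0.10 in WT mice (SD, n = 4 each), a difference of -0.046 (SE 0.10, limma adjusted p = 0.877). Its 95% interval runs from 0.827 to 1.13-fold.

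Dnaja1 and Dnajb1 encode the main J proteins of the cytosol, of types A and B, which load clients onto HSP70. Dnaja1 read 10.08, 10.11, 9.90 and 10.12 in Sel1l-/- mice, against 10.12, 10.39, 10.22 and 9.96 in WT mice. WT 2 and WT 3 were above every Sel1l-/- mouse and WT 4 was below 3 of them. Dnaja1 averaged 10.05 ± 0.10 in Sel1l-/- and 10.17 ± 0.18 in WT mice (SD, n = 4 each), a difference of -0.12 (SE 0.10, limma adjusted p = 0.634, 95% interval 0.788 to 1.07-fold). Dnajb1 read 8.27, 8.26, 8.02 and 8.06 in Sel1l-/- mice, against 8.21, 8.13, 8.10 and 7.96 in WT mice. In Dnajb1 the 2 highest values were of Sel1l-/- 1 and 2, and the other Sel1l-/- mice fell inside the WT range. Dnajb1 averaged 8.15 ± 0.13 in Sel1l-/- and 8.10 ± 0.11 in WT mice (SD, n = 4 each), a difference of 0.053 (SE 0.084, limma adjusted p = 0.826, 95% interval 0.909 to 1.18-fold). The letters and numbers of the mouse codes moved these values about: within the letter F the difference was 0.13 for Dnaja1 and 0.31 for Dnajb1.

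Of the 6 genes, 4 had more than 1 probe set naming them alone, and the others can be set beside the one used. The additional probe sets of Hspa8 differed between groups by -0.02 and -0.04, those of Hsp90aa1 by -0.01 and 0.00, and the bright additional one of Hspb1 by -0.05. One of the Hspa8 probe sets was irregular, at 12.64, 11.58, 12.46 and 12.87 in Sel1l-/- mice, against 12.67, 11.70, 12.52 and 12.79 in WT mice. Sel1l-/- 2 and WT 2 were low by about the same amount on it, and not on the probe set used above. The additional Dnaja1 probe set read 8.09, 7.97, 8.02 and 8.14 in Sel1l-/- mice, against 8.59, 8.49, 8.03 and 8.17 in WT mice. It averaged 8.05 ± 0.07 in Sel1l-/- and 8.32 ± 0.26 in WT mice (SD, n = 4 each), a difference of -0.27 (SE 0.13, limma adjusted p = 0.446 over all probe sets), the same sign as the brighter one and also short of the threshold. The dim probe set of Hspb1 averaged 3.95 in Sel1l-/- and 4.10 in WT mice, below the lower quartile of every array.

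**Figure D2:**
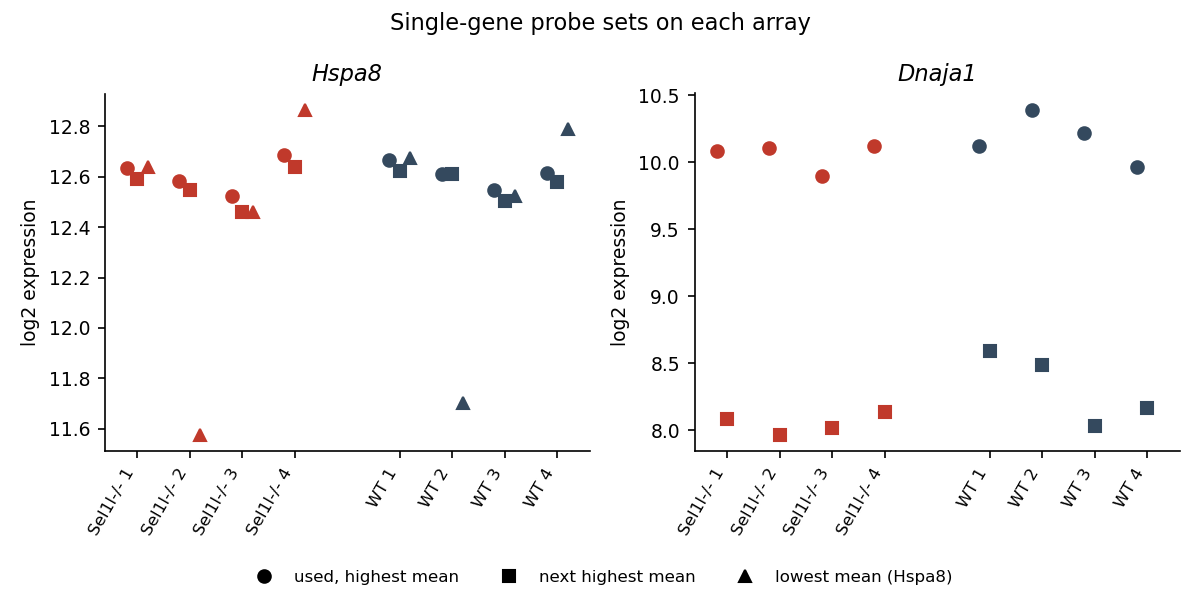
Log2 expression on each single-gene probe set of Hspa8 (3 probe sets) and Dnaja1 (2) in 4 Sel1l-/- and 4 WT mice, with circles for the probe set used, squares for the next and triangles for the last of Hspa8. Sel1l-/- 2 (11.58) and WT 2 (11.70) drop on the last Hspa8 probe set alone, and WT 1 (8.59) and WT 2 (8.49) stand above the other mice on the additional Dnaja1 probe set.

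From mouse to mouse, some of the 6 genes varied together and others in opposite directions. The pooled within-group SD was 0.060 for Hspa8, 0.108 for Hsp90aa1, 0.118 for Dnajb1, 0.147 for Dnaja1, 0.151 for Hspb1 and 0.232 for Hsph1. As a description over the 8 arrays, which share the mice, the deviations of Hsp90aa1 and Hsph1 from their group means had a Pearson correlation of 0.788, the highest of 15 pairs, and those of Hspa8 and Hsp90aa1 one of 0.619. The J proteins Dnaja1 and Dnajb1 were at 0.500. Hspb1 and Dnaja1 were at -0.568 and Hsph1 and Dnajb1 at -0.458. The genes outside the 6 whose deviations were most like those of Hsph1 were Dtx4 (0.984), Tekt1 (0.984), Erp29 (0.982), Arhgap19 (0.975) and Pfn1 (0.974), the nearest of 138 genes over 0.9 among 18814.

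Set beside their counterparts in the ER, 0 of the 6 cytosolic genes were called, and 1.72% of all genes were. In a list of 6, a count of 0 is near that share. Of the 10 ER genes 5 rose, beside 1.04% of all genes called higher. All 10 ER counterparts were measured, their differences were all above 0 with a median of 0.48 beside -0.0037 over all genes, and 0 fell. Hspa5, which encodes BiP, the HSP70 of the ER, read 12.45, 12.45, 12.24 and 12.57 in Sel1l-/- mice, against 11.58, 11.62, 11.47 and 11.74 in WT mice, and rose 1.77-fold (limma adjusted p = 0.00618). Hsp90b1, which encodes GRP94, the HSP90 of the ER, read 12.38, 12.20, 12.38 and 12.46 in Sel1l-/- mice, against 11.51, 11.46, 11.55 and 11.55 in WT mice, and rose 1.79-fold (limma adjusted p = 0.00193). Hyou1, which encodes the HSP110 of the ER, read 10.33, 10.27, 10.27 and 10.64 in Sel1l-/- mice, against 9.48, 9.49, 9.47 and 9.60 in WT mice, and rose 1.82-fold (limma adjusted p = 0.00618). No Sel1l-/- mouse overlapped a WT mouse in these 3 genes. Sdf2l1, a partner of the BiP and J protein cycle, rose 2.59-fold (limma adjusted p = 0.0103), and Dnajc3, an ER J protein that inhibits the kinase PERK, rose by 0.42 on the log2 scale (limma adjusted p = 0.0346). With the code letter as a block, which left 20 genes called in all, the limma adjusted p was 0.203 for Hspa5, 0.133 for Hsp90b1 and 0.211 for Hyou1, and with the code number as a block, which left 11, it was 0.0600 for Hspa5 and 0.0571 for Hyou1.

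**Figure D3:**
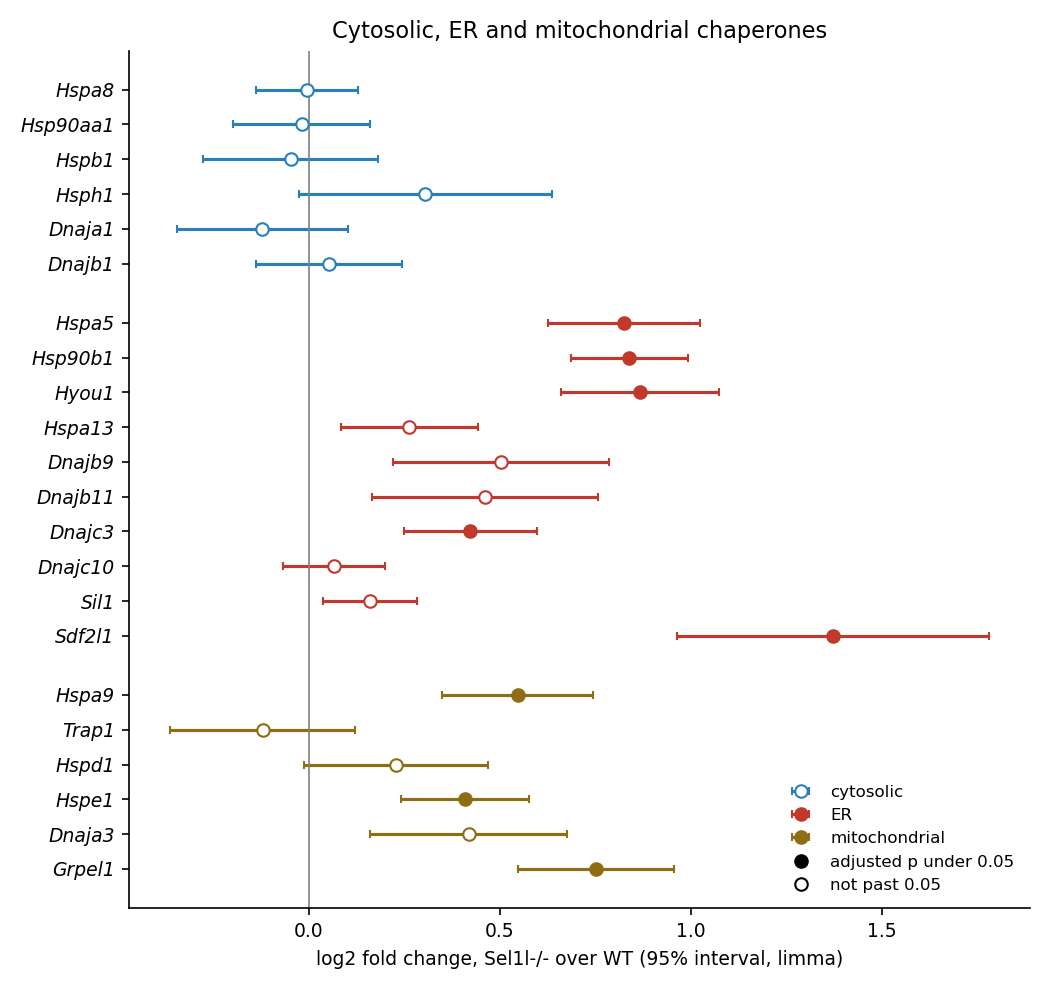
Difference in log2 expression (Sel1l-/- minus WT) of the measured chaperones of the cytosol (6 genes), ER (10) and mitochondria (6), with 95% intervals from limma, and filled points where the limma adjusted p is under 0.05. The cytosolic genes lie between -0.12 and 0.31 with none called, and the ER genes between 0.07 and 1.37 with 5 called.

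Each measured cytosolic gene except Hspb1 was also paired with an ER relative within each mouse, in 5 pairs chosen with earlier results of these data known. Hspa8 (-0.0037) and Hsp90aa1 (-0.018) hardly differed between groups. Their pair differences therefore largely restate the rises of Hspa5 (0.82) and Hsp90b1 (0.84), and are not a separate test of compartments. For 4 against 4 mice, an exact two-sided permutation test cannot go below 0.0286, which is 2 of 70 assignments. Hspa5 differed from Hspa8 in its response by 0.83 on the log2 scale (SE 0.06, 1.78-fold, exact permutation p = 0.0286, adjusted over the 5 pairs 0.0476). Relative to the WT mean, the log2 ratio of Hspa5 to Hspa8 lay between 0.72 and 0.89 in Sel1l-/- mice and between -0.08 and 0.14 in WT mice. The ratio of BiP to HSC70 message was thus higher in each Sel1l-/- mouse than in any WT mouse. Hsp90b1 differed from Hsp90aa1 by 0.86 (SE 0.09, 1.81-fold, exact permutation p = 0.0286, adjusted 0.0476), with a lowest Sel1l-/- value of 0.74 and a highest WT value of 0.24. Hyou1 differed from Hsph1 by 0.56 (SE 0.14, 1.48-fold, exact permutation p = 0.0286, adjusted 0.0476), with a lowest Sel1l-/- value of 0.48 and a highest WT value of 0.27. These 3 pairs, of HSP70, HSP90 and HSP110 kinds, were separated in all 4 mice of each group.

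In the pairs of J proteins the groups overlapped. Dnajb11, the ER J protein that works with BiP, read 8.86, 8.77, 8.84 and 9.26 in Sel1l-/- mice, against 8.35, 8.46, 8.32 and 8.74 in WT mice, a difference of 0.46 (SE 0.13, limma adjusted p = 0.135, or 0.0254 with the mouse number as a block). WT 4 came nearest to the Sel1l-/- mice. Dnajb11 differed from Dnajb1 by 0.41 (SE 0.21, exact permutation p = 0.114, adjusted 0.114) and from Dnaja1 by 0.58 (SE 0.19, exact permutation p = 0.0857, adjusted 0.107). In both pairs WT 4, at 0.41 and 0.48, lay above the lowest Sel1l-/- mouse, at 0.14 and 0.37. Both pairs share Dnajb11, so they are not separate pieces of evidence. These tests permute all 8 mice and do not use the mouse numbers. Between same-numbered mice 1 to 4, the difference was 0.45, 0.18, 0.59 and 0.41 for Dnajb11 and Dnajb1, and 0.54, 0.60, 0.84 and 0.35 for Dnajb11 and Dnaja1. It was thus above 0 in 4 of 4 for both, as it was for Hspa5 and Hspa8 (0.76 to 0.90), Hsp90b1 and Hsp90aa1 (0.66 to 0.99) and Hyou1 and Hsph1 (0.27 to 0.98). Within the mice whose codes hold the letter F, 2 Sel1l-/- and 1 WT, the pair differences were 0.71 for Hspa5 and Hspa8, 0.93 for Hsp90b1 and Hsp90aa1, 0.78 for Hyou1 and Hsph1, -0.23 for Dnajb11 and Dnajb1 and -0.061 for Dnajb11 and Dnaja1. Within the code numbers 5, 7 and 9 they were 0.70, 0.84 and 0.95 for Hspa5 and Hspa8, 0.98, 0.96 and 0.51 for Hsp90b1 and Hsp90aa1, and 0.60, 0.75 and 0.26 for Hyou1 and Hsph1.

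**Figure D4:**
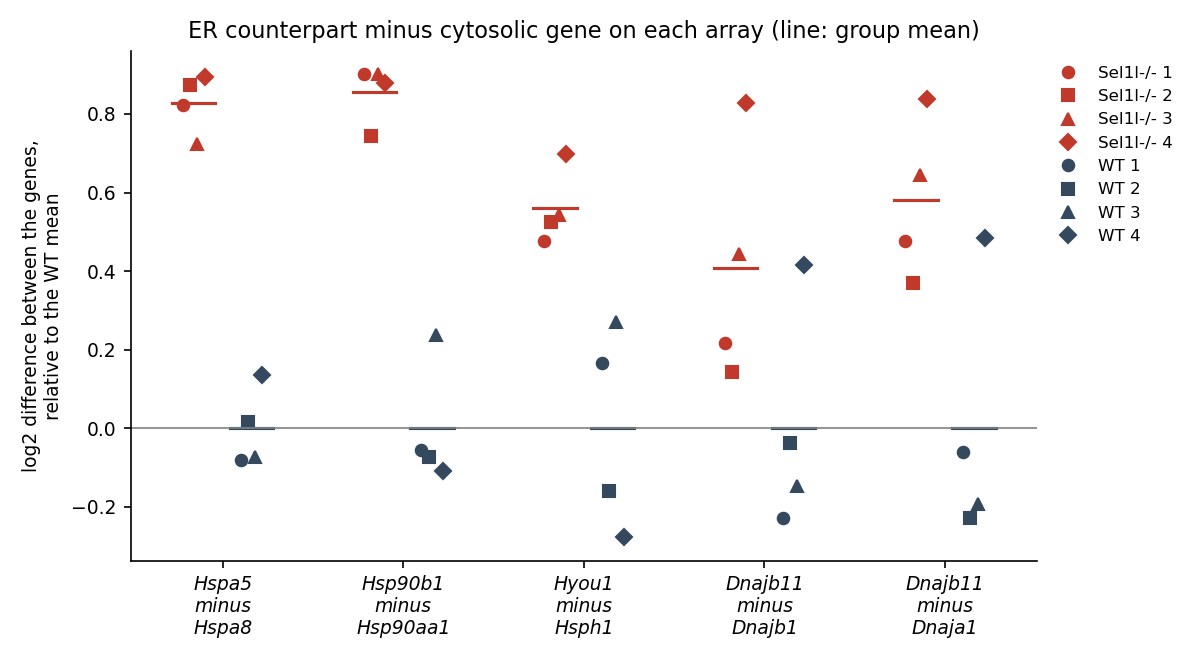
Log2 ratio of each ER chaperone to its cytosolic relative in 4 Sel1l-/- and 4 WT mice, relative to the WT mean of that ratio, 1 point a mouse, with group means. In the HSP70, HSP90 and HSP110 pairs every Sel1l-/- mouse is above every WT mouse, and in both pairs with Dnajb11 WT 4 lies among the Sel1l-/- mice.

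The mitochondrial relatives stood nearer to the ER set, with 3 of 6 genes called higher, beside 1.04% of all genes, none lower, and a median of 0.41. With the code number as a block, which left 11 genes called in all, 0 of the 6 were called, and without moderation 1 was. Grpel1, the nucleotide exchange factor of the mitochondrial HSP70, rose 1.68-fold (limma adjusted p = 0.00817), and Hspa9, that HSP70 itself, rose 1.46-fold (limma adjusted p = 0.0231). Hspe1, the cochaperonin whose promoter is shown above, read 10.80, 10.69, 10.57 and 10.52 in Sel1l-/- mice, against 10.27, 10.20, 10.29 and 10.19 in WT mice, and rose 1.33-fold (limma adjusted p = 0.0340). Its neighbour Hspd1, across the same stretch of DNA, differed by 0.23 (limma adjusted p = 0.361). The call of Hspe1 was kept in 1 of 8 fits that left out a mouse, with a limma adjusted p of up to 0.120 without Sel1l-/- 2, and that of Hspa9 in 3 of 8, with up to 0.0823 without Sel1l-/- 3.

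In the other lists of cytosolic chaperones, counts of 0 stand beside the 1.72% of all genes that were called, and in lists of this size they are near that share. Of 7 other HSP70 and HSP110 genes of the cytosol 0 were called, 6 differences were below 0 and the median was -0.31. At an unadjusted p under 0.05 there were 4 of the 7, beside 15% of all genes, and the groups did not overlap in 2 of the 7, beside 10.3% of all genes. Hspa12b, an atypical HSP70 known from endothelial cells, read 8.71, 8.46, 8.61 and 8.00 in Sel1l-/- mice, against 9.28, 8.83, 9.41 and 8.83 in WT mice, a difference of -0.64 (limma adjusted p = 0.148, or 0.0275 with the mouse number as a block). Its groups did not overlap. The mean of the 7 endothelial markers did not overlap either, at 9.48 to 9.85 in Sel1l-/- and 9.97 to 10.16 in WT mice, and of the markers taken singly 4 did not overlap; their part in the Hspa12b difference was not tested. Hspa4, another HSP110 protein, differed by 0.17 (limma adjusted p = 0.243).

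Among 17 of 18 measured cochaperones of HSP70, 0 were called, 10 differences were above 0 and the median was 0.04. Dnajc2, a J protein of the ribosome, differed by 0.23 (limma adjusted p = 0.264) and Bag3, which links HSP70 to autophagy, by 0.16 (limma adjusted p = 0.347). All 16 cochaperones of HSP90 were measured, 0 were called, and the median was -0.06. Ahsa1, which speeds the HSP90 ATPase, differed by 0.17 (limma adjusted p = 0.172) and Tomm34 by -0.16 (limma adjusted p = 0.264). Of 4 measured small heat shock proteins other than Hspb1 0 were called, with Hspb8 at -0.24 (limma adjusted p = 0.594) and Hspb6 at 0.20 (limma adjusted p = 0.695). Of 13 subunits of the TRiC chaperonin and of prefoldin, which fold actin and tubulin, 0 were called, with a median of 0.05, Cct4 at -0.13 (limma adjusted p = 0.314) and Pfdn6 at 0.17 (limma adjusted p = 0.331).

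Hsf2 was the call among the heat shock factors and their regulators, 1 of 6 measured genes. HSF2 binds the same elements as HSF1 and can form mixed trimers with it. Hsf2 read 8.26, 8.17, 8.24 and 7.93 in Sel1l-/- mice, against 7.75, 7.60, 7.79 and 7.65 in WT mice, with no overlap. It averaged 8.15 ± 0.15 in Sel1l-/- and 7.70 ± 0.08 in WT mice (SD, n = 4 each) and rose 1.37-fold (difference 0.45, SE 0.09, limma adjusted p = 0.0418). The call was kept in 1 of 8 fits that left out a mouse, without Sel1l-/- 4, and its limma adjusted p was up to 0.132 without Sel1l-/- 2. It was also lost with each array centred on its median (limma adjusted p = 0.0772). The median of the 6 genes was -0.07.

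Other genes known to be induced by heat shock, 15 of 18 measured, had a median difference of 0.10 with 12 above 0, and 1 was called, the Hspe1 given above; 9 of the list's genes also belong to the other lists here. Of 13 immediate early genes, whose RNA responds within minutes to handling and stress, 1 was called: Jun, which fell by 0.54 on the log2 scale (limma adjusted p = 0.0472). Jun read 9.31, 9.53, 9.16 and 9.46 in Sel1l-/- mice, against 10.04, 9.77, 10.04 and 9.76 in WT mice. Its call was lost in each of the 8 fits that left out a mouse, with a limma adjusted p of up to 0.137 without WT 1, and with the mouse number as a block (0.0700). The immediate early list mean ran from 7.93 to 8.20 in Sel1l-/- and from 7.91 to 8.19 in WT mice. Rbm3 and Cirbp, RNA-binding proteins induced by cold, differed by 0.08 and 0.10 (limma adjusted p = 0.599 and 0.749).

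**Figure D5:**
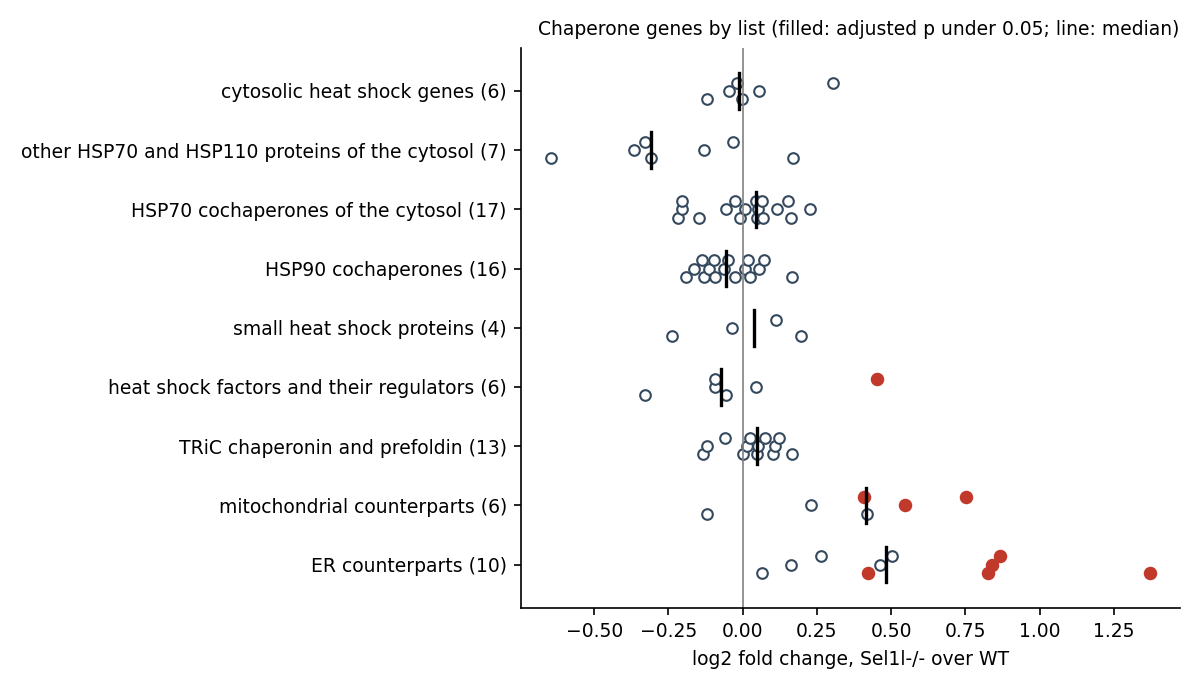
Difference in log2 expression (Sel1l-/- minus WT) of each measured gene of the chaperone lists, 1 point a gene, with the list median as a bar and filled points where the limma adjusted p is under 0.05. The ER list (median 0.48) and the mitochondrial list (0.41) stand to the right of 0, and the 6 cytosolic heat shock genes have a median of -0.011.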

How the data were processed

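Total RNA of white adipose tissue was labelled and hybridised to 1-colour arrays, 1 for each mouse, per the labels' protocols. The deposited values are log2 expression per probe set, and RMA is named in the submitters' processing notes, with no version or filter stated. That the scale is log2 follows from the range of the values, 1.72 to 13.9. RMA makes the distributions of arrays alike, so a shift of most genes in 1 direction would not show. No depth exists for arrays; 4 mice a group limit the precision.

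Of 35556 probe sets, 21218 carried 1 gene, 1881 several and 12457 were not named in the platform annotation. Each gene took its probe set with the highest mean, which left 18820 genes. Sel1l-/- and WT mice were compared in limma 3.58.1 under R 4.3.3 by two-sided moderated tests (lmFit, eBayes; 2.60 prior degrees of freedom). P-values were adjusted over all 18820 genes by the Benjamini-Hochberg method, and genes under 0.05 were called. The code was tested on simulated data. Pairs of chaperones were compared by exact permutation tests on each mouse's log2 ratio, adjusted over 5 pairs. Python 3.11.15, pandas 2.3.3 and matplotlib 3.10.9 were used for the rest. Promoter windows were matched to the genes by symbol; no genome or protein table was used.

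The heat shock genes and the gene lists were chosen with earlier results of these data known. Named genes are the 10 heat shock genes, the genes of the pairs, Sel1l, up to 4 called genes of each other list or, where none was called, the 2 with the smallest p, and the 5 genes most like the most variable heat shock gene. Dnajc3, Hspd1 and the genes with promoter matches are named outside that rule.

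Both groups carry mouse numbers 1 to 4 in their titles. Taken as deviations from the group mean over all genes, mice of the same number correlated at 0.518, 0.107, 0.363 and 0.524, and those of other pairs at -0.489 to 0.328. Since each same-numbered value exceeds 0.1, the number was used as a block in an alternative fit; what it stands for is not stated. The mouse codes hold a letter (E for WT 1 to 3, F for WT 4 and Sel1l-/- 1 and 2, G for Sel1l-/- 3 and 4) and a number (5 for WT 1, WT 4 and Sel1l-/- 3, 7 for WT 2 and Sel1l-/- 1 and 4, 9 for WT 3 and Sel1l-/- 2), whose meaning is not given; both were tried as blocks. The other alternatives were centring on array medians, the mean of a gene's probe sets, leaving out the dimmest 25% of genes, a variance trend with robust moderation, array weights, no moderation, and leaving out each mouse in turn.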

Additional observations from a re-analysis of the deposited data

Results flagged for a closer look

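Single mice that stood apart from the other 3 of their group were sought in 88 groups of 4 by Dixon's test at the 95% level, which chance alone would flag in about 1 in 20, and 3 were found. Hyou1, the ER relative of Hsph1, read 9.60 in WT 4, beside 9.47 to 9.49 in the other WT mice. Dnajc2, the J protein of the ribosome, read 7.44 in Sel1l-/- 2, beside 7.18 to 7.20 in the other Sel1l-/- mice. Pvalb, a skeletal muscle marker, read 4.17 in Sel1l-/- 4, beside 3.47 to 3.53 in the other Sel1l-/- mice. None of the 6 heat shock genes had such a mouse in either group.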

How the results depend on the processing

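The count of heat shock genes called was 0 under each of 17 alternatives, while the count over all genes, 324, was 725 with the replicate block, 20 with the code letter as a block, 11 with the code number, 566 with array weights and 124 without moderation. It ran from 100 (without WT 1) to 336 (without Sel1l-/- 4) with 1 mouse left out, at 102 without Sel1l-/- 3, 103 without Sel1l-/- 2, 122 without WT 2, 142 without WT 3 and 143 without Sel1l-/- 1. With the code letter as a block, which compares 2 Sel1l-/- mice with WT 4 alone, the sign turned for Hsph1 (-0.085), Dnaja1 (0.13), Bag3 (-0.0040), Hspb8 (0.27), Cd68 (-0.33), Pi16 (0.037) and Lrrn4 (0.020), and for the pairs of Dnajb11 with Dnajb1 (-0.23) and with Dnaja1 (-0.061). Under the same block the pairs of Hspa5 with Hspa8 and of Hyou1 with Hsph1 stood at 0.71 and 0.78. The cause of these shifts was not tested.

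The small differences of the heat shock genes changed sign with the mouse left out: Hspa8 ran from -0.030 to 0.024 (0.0043 without Sel1l-/- 2, 0.024 without Sel1l-/- 3, 0.015 without WT 1), Hsp90aa1 from -0.085 to 0.027 (without WT 4) and Hspb1 from -0.12 to 0.018 (without Sel1l-/- 4). Hsph1 ran from 0.20 to 0.43, Dnaja1 from -0.19 to -0.048, Dnajb1 from 0.0058 to 0.096, and Cirbp from -0.0034 (without WT 4) to 0.17. With 1 mouse left out, the pair differences kept their direction, at 0.80 to 0.87 (Hspa5 with Hspa8), 0.82 to 0.94 (Hsp90b1 with Hsp90aa1), 0.47 to 0.65 (Hyou1 with Hsph1), 0.27 to 0.55 (Dnajb11 with Dnajb1) and 0.50 to 0.74 (Dnajb11 with Dnaja1). No exact test was run with 1 mouse left out, so these are values only.

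Among the lists, the heat shock factor list and the list of other heat-induced genes each went to 0 calls with centring, with the code letter, with the code number and without moderation, and ran from 0 to 1 with 1 mouse left out. The ER list held 0, 1 and 3 calls with the letter, with the number and without moderation, and 4 to 5 with 1 mouse left out; the mitochondrial list held 0, 0 and 1, and 1 to 3. The immediate early list held 0 calls with the letter, with the number, without moderation and with any mouse left out (0 to 0). Medians with the letter block were -0.010 for the other HSP70 genes, 0.010 for HSP90 cochaperones, 0.60 for mitochondrial, -0.0040 for heat-induced, -0.12 for immediate early and 0.26 for cold-induced genes. The TRiC median was 0.0072 with centring and 0.010 to 0.067 with 1 mouse left out, the ER median 0.39 (without Sel1l-/- 4) to 0.55, and that of the other HSP70 genes -0.34 to -0.18 (without Sel1l-/- 4). The replicate block added 1 call, Hspa12b, to the other HSP70 genes, and gave 7 calls in the ER list (Dnajb11 among those gained), 4 in the mitochondrial list and 1 in the immediate early list, where Jun was lost and another gene gained. It left the count at 1 in the heat shock factor and heat-induced lists and at 0 in the lists of HSP70 and HSP90 cochaperones, small heat shock proteins, TRiC and prefoldin, and cold-induced genes.

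With 4 mice a group, the limma interval of Hsph1 includes 0 and reaches 1.55-fold, wider than those of the other 5 measured genes, and 4 of the 10 heat shock genes have no value, the most heat-inducible among them.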
